A study of Mus musculus with 4 samples.

Results

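The genes described here are the classical axon guidance ligands and receptors, followed across the cells of the embryonic mouse arcuate nucleus (ARC) region. Their members were the rows of the count matrix whose symbols begin with Slit, Robo, Sema, Plxn, Nrp, Efna, Efnb, Epha, Ephb, Ntn or Unc5 and a number or letter, together with Dcc. Robo3 was left out because its counts define one of the neuron classes. The rule took 74 of 27998 listed genes. Of these, 69 are guidance genes by name, 33 receptors and 36 ligands, and 5 match by spelling alone (Unc50, Unc5cl and the antisense transcripts Plxna4os1, Plxna4os2 and Plxna4os3). The 69 guidance genes held 41811 UMIs (unique molecular identifiers, each 1 captured transcript) in the cells kept. A UMI was seen for 66 of them and at least 100 UMIs for 52, and the symbols Ntn5, Ntn5.1 and Ntn5.2 were listed at 0, which allows a level of up to 0.123 CPM (counts per 1000000 UMIs).

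The data came from embryos of the C57BL/6 strain that carry the transgene Pomc-eGfp, in which regulatory sequence of Pomc, the gene of the melanocortin precursor, drives green fluorescent protein. The study's methods describe cutting out the GFP-positive ventral hypothalamus under fluorescence, combining the tissue of several embryos, dissociating it with papain and loading 1 droplet-based single-cell library. The age label gives embryonic day 15 and the sample titles a slightly later stage. All 4 samples are repeat sequencing of the one library. Every cell carries the same transgene and no cell can be assigned to an embryo, so the comparisons here are between groups of cells within a single pooled sample. They have no replicate error and no test, and every interval is a 95% exact interval for counting error only.

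Axon guidance cues are secreted or membrane-bound proteins that attract or repel a growing axon's tip. Slits are secreted and act through Robo receptors, netrins through Dcc and Unc5 receptors, and semaphorins through plexins, the secreted class with neuropilins as co-receptors. Ephrins sit in the membrane and bind Eph receptor tyrosine kinases on contact, and many of these proteins are also used in blood vessel growth and in the sorting of cells in tissues.

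Cells were grouped by transcript counts. Neurons were cells with at least 2 UMIs of Stmn2, a neuronal tubulin regulator, and were split by gate genes into 624 Otp neurons, 261 Dlx1 neurons, 159 Pomc neurons (at least 3 Pomc UMIs), 490 Fezf1/Nr5a1 neurons, 339 Robo3 neurons, 89 Gbx2 neurons and 1743 ungated neurons. Otp marks hypothalamic neuroendocrine lineages, Dlx1 forebrain GABAergic neurons, and Fezf1 and Nr5a1 the ventromedial hypothalamus. Outside the neurons stood 834 progenitors, 700 pituitary-like, 147 fibroblast-like, 63 vascular-like and 33 macrophage-like cells, although the label names only arcuate nucleus neurons. Of listed marker genes, 3 of 3 were at least 2-fold higher with at least 20 UMIs in Otp neurons, 7 of 7 in Dlx1, 3 of 4 in Pomc (not Nhlh2) and 5 of 7 in Fezf1/Nr5a1 neurons (Dlk1 was lower there). All 10 habenula markers were higher in Robo3 neurons, with Pou4f1 at 1359 CPM against 221 CPM in the other neurons, and by the same rule 5 of 8 thalamic markers in Gbx2 neurons, where Rora was over 2-fold higher with 12 UMIs. There Lef1 was under 2-fold higher (log2 ratio 0.84) and Kitl was lower, at 60.9 against 92.2 CPM. Robo3 and Gbx2 neurons thus carried markers of regions outside the hypothalamus, against the tissue label, and are called here by their gate gene. Outside the neurons the lists passed for 5 of 5 progenitor, 6 of 6 pituitary, 6 of 6 fibroblast, 3 of 6 vascular and 5 of 5 macrophage genes. The remaining vascular markers, Sox17, Anpep and Foxs1, were higher by log2 ratios of 4.42 to 8.22 with fewer than 20 UMIs. Median depth per cell in these classes ran from 2804.5 UMIs in Otp neurons to 4191.5 in pituitary-like cells.

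Levels are given as CPM of all UMIs pooled over a class. Counting at transcript 3′ ends gives 1 UMI per molecule, so no length scaling was applied. The summed level of the guidance receptors was highest in Robo3 neurons, at 1312 CPM (1252 to 1375), followed by Gbx2 neurons at 1154 CPM (1040 to 1276), with overlapping intervals. Vascular-like cells came next with 999 CPM (886 to 1123), overlapping Gbx2 neurons, and ungated neurons with 956 CPM, and the other 8 classes had 609 to 805 CPM. Summed ligand level was 1018 CPM in Otp, 965 CPM in Pomc and 958 CPM in Dlx1 neurons. It was 855 CPM in Gbx2, 852 CPM in ungated, 840 CPM in Fezf1/Nr5a1 and 827 CPM in Robo3 neurons, whose intervals overlapped. Fezf1/Nr5a1 neurons, at 718 CPM of receptors, were therefore in the lower range of both sums among neurons. Outside the neurons, progenitors had 987 CPM of ligands (951 to 1024), overlapping Otp neurons (974 to 1063), and the other classes 287 to 864 CPM. Receptors exceeded ligands in Robo3, Gbx2 and ungated neurons and in pituitary-like, vascular-like and macrophage-like cells, and ligands exceeded receptors in the remaining classes. For counts at equal depth, each cell was thinned to 2167 UMIs, which left out the shallower cells and kept 5716 of 6351 (659 of 834 progenitors, 50 of 63 vascular-like cells and 334 of 339 Robo3 neurons). In these cells, a Robo3 neuron held a mean of 2.38 different guidance receptors (SD 1.36 over cells), a Gbx2 neuron 1.99, and cells of the other classes 1.09 to 1.78.

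**Figure D1:**
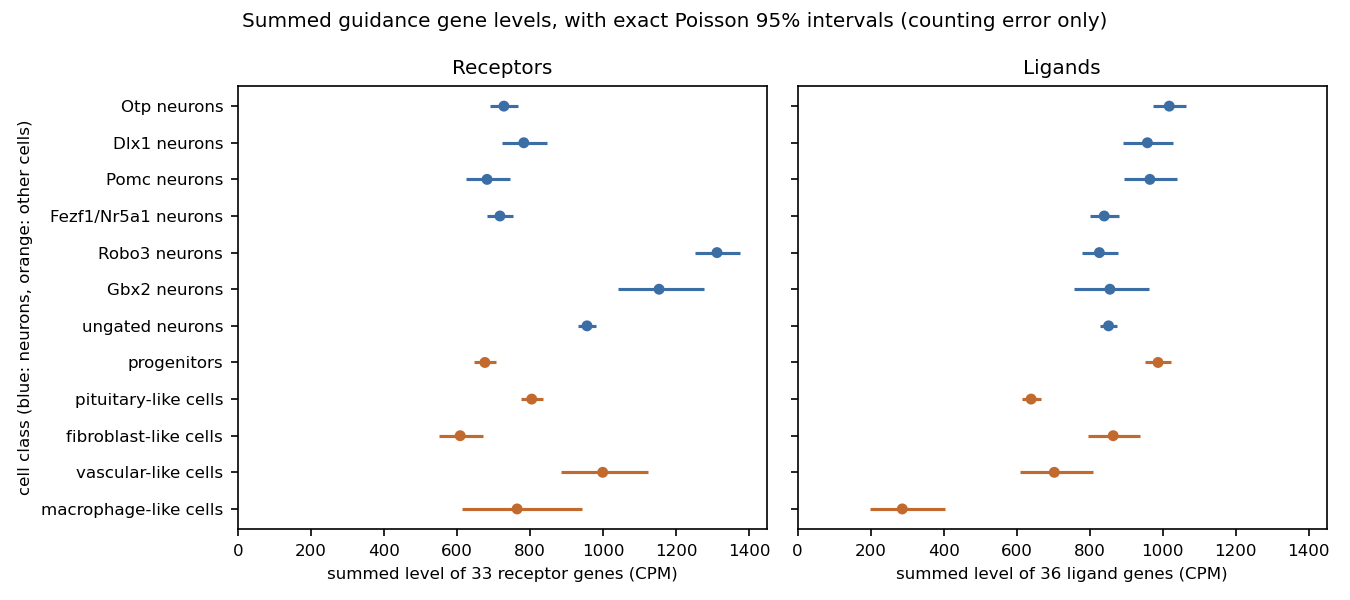
Summed level in CPM of the guidance receptors and of the guidance ligands in each cell class, 1 point per class and panel with its 95% exact Poisson interval for counting error (blue, neurons, and orange, other cells). Robo3 neurons have the highest receptor sum, 1312 CPM, with an interval that overlaps that of Gbx2 neurons at 1154 CPM. Otp neurons have the highest ligand sum, 1018 CPM, with an interval that overlaps that of progenitors at 987 CPM.

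The ephrins were the largest family by UMIs, with 12520, and the netrins and Dcc the smallest, with 223 and 242. Semaphorins held 6534 UMIs over 20 genes, Eph receptors 6245 over 14, plexins 5558 over 9, neuropilins 3897 over 2, Robo receptors 3214 over 3, Slits 1843 over 3 and Unc5 receptors 1535 over 4. The families were spread unevenly over the classes. Summed ephrin level was 731 CPM in Otp neurons and 353 CPM in Robo3 neurons. Summed Eph receptor level was reversed between the same classes, at 169 CPM and 420.3 CPM. Neuropilins reached 386 CPM in Robo3 neurons and 421 CPM in vascular-like cells against 55.7 CPM in Fezf1/Nr5a1 neurons.

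**Figure D2:**
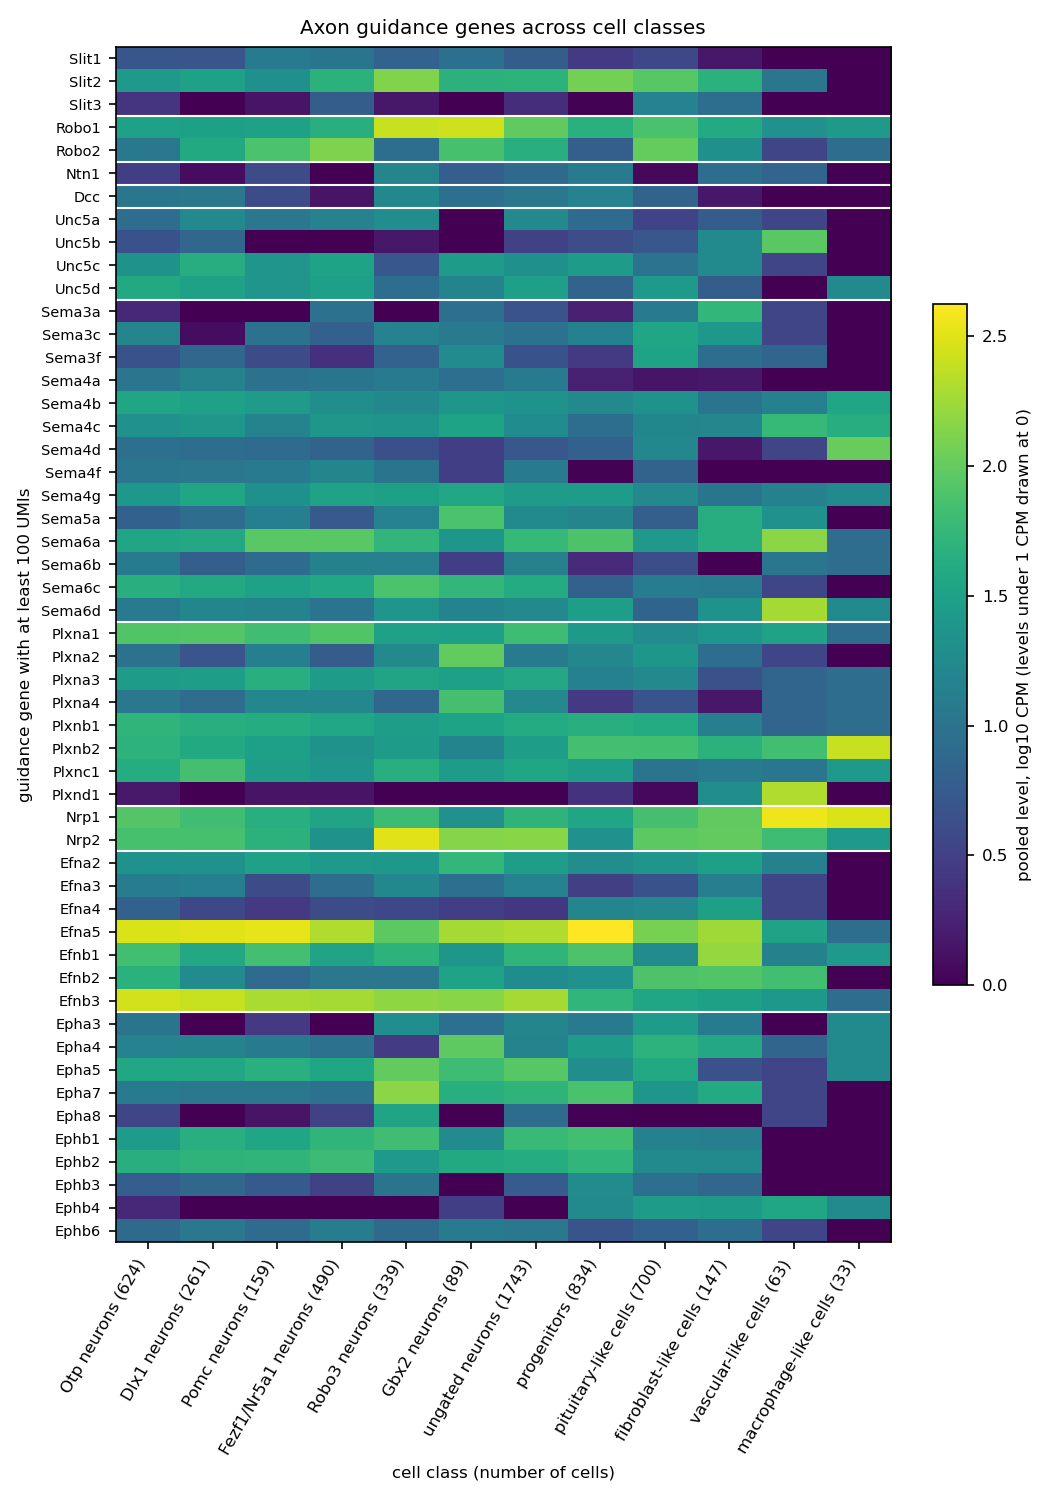
Heat map of the 52 guidance genes with at least 100 UMIs (rows, by family) across 12 cell classes (columns). Colour is log10 CPM. Robo1, Nrp2, Epha7 and Slit2 are brightest among neurons in the Robo3 or Gbx2 columns, and Robo2 in the Fezf1/Nr5a1 column.

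Robo1 and Robo2, both receptors for Slits, had different distributions. Robo1 (chr16:72308306-73046095, plus strand, GRCm38) was at 252 CPM (226 to 281) in Robo3 neurons and 274 CPM (220.3 to 337) in Gbx2 neurons. In Otp, Dlx1, Pomc and Fezf1/Nr5a1 neurons it was at 31.9, 30.8, 31.5 and 44.3 CPM, with ungated neurons between them at 97.0 CPM. The first pair of classes had overlapping intervals and did not overlap any of the other 10 classes. Outside the neurons Robo1 was at 74.0 CPM in pituitary-like cells, 46.6 CPM in progenitors, 40.1 CPM in fibroblast-like cells, 26.1 CPM in macrophage-like cells and 21.4 CPM in vascular-like cells. Against all neurons outside the class, Robo1 was higher in Robo3 neurons by a log2 ratio of 1.77 (1.59 to 1.96) and in Gbx2 neurons by 1.65 (1.33 to 1.97). It was the only member at least 2-fold apart in all 6 neuron comparisons, and the other 4 were negative: -1.67 in Otp, -1.63 in Dlx1, -1.59 in Pomc and -1.18 in Fezf1/Nr5a1 neurons. At equal depth, 44.3% of 334 Robo3 neurons and 40.7% of 86 Gbx2 neurons held a Robo1 UMI, against 4% of 50 vascular-like and 6.67% of 30 macrophage-like cells, whose median depths before thinning were 3395 and 2926 UMIs.

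Robo2 (chr16:73891839-74411825, minus strand) was highest among all classes in Fezf1/Nr5a1 neurons, at 129.7 CPM (115 to 146). Pituitary-like cells had 99.8 CPM, Pomc neurons 76.8 CPM, Gbx2 neurons 73.1 CPM, ungated neurons 45.4 CPM and Dlx1 neurons 39.4 CPM. Otp neurons had 11.1 CPM, Robo3 neurons 8.83 CPM (4.56 to 15.4), progenitors 6.21 CPM and vascular-like cells 3.57 CPM. Against other neurons the log2 ratio was 1.79 (1.57 to 2.01) in Fezf1/Nr5a1 neurons, -2.41 (-3.09 to -1.80) in Otp neurons (-1.43 when neurons of several gates were counted in each) and -2.69 (-3.65 to -1.88) in Robo3 neurons. At equal depth a Robo2 UMI was in 26% of 469 Fezf1/Nr5a1 neurons and in 0.898% of 334 Robo3 neurons. Robo3 neurons were therefore high in Robo1 and low in Robo2, Fezf1/Nr5a1 neurons the reverse, Otp neurons low in both and Gbx2 neurons at 274 and 73.1 CPM. Robo4, an endothelial member of the family, was at 42.8 CPM (22.1 to 74.8) in vascular-like cells, from 12 UMIs, and at 0.506 CPM or less elsewhere.

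Slit2, a secreted ligand of both receptors, lies at chr5:47983138-48307733 on the plus strand. Its highest levels were in Robo3 neurons, 132 CPM (114 to 153), and progenitors, 120.0 CPM (108 to 133), whose intervals overlapped. Pituitary-like cells had 87.3 CPM, and the other neuron classes 20.6 CPM (Pomc) to 50.2 CPM (ungated). In Robo3 neurons Slit2 was thus high together with its receptor Robo1, with a log2 ratio of 1.62 for Slit2 against other neurons. Slit1 stayed between 4.93 and 12.3 CPM in neurons, and Slit3 was highest in pituitary-like cells, at 14.5 CPM.

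**Figure D3:**
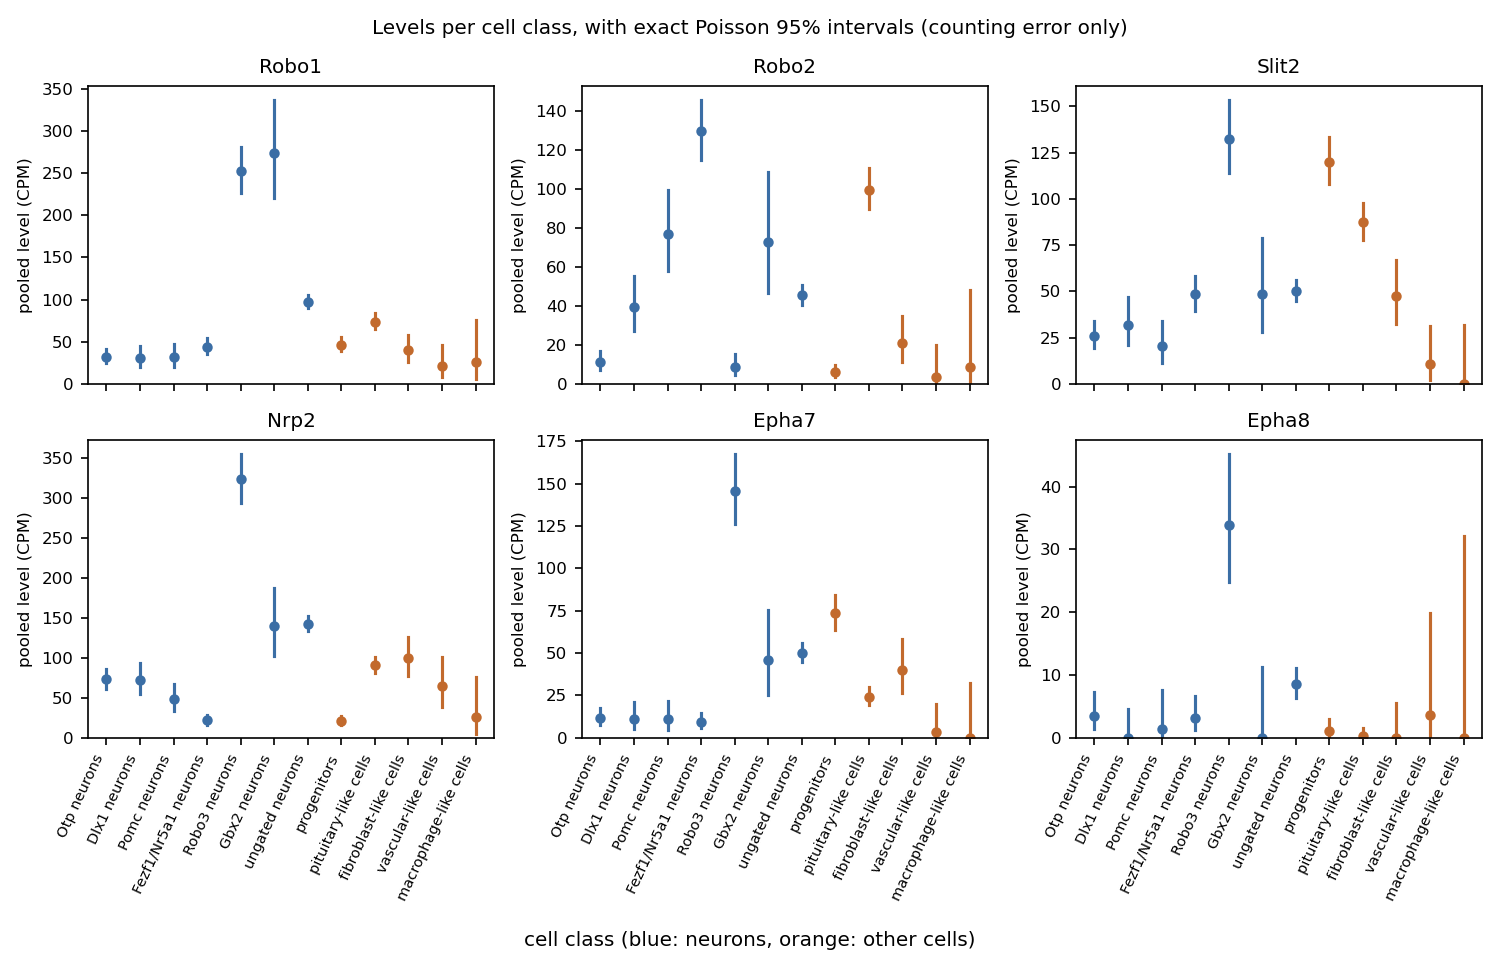
Level in CPM (with 95% exact Poisson intervals for counting error) of Robo1, Robo2, Slit2, Nrp2, Epha7 and Epha8 in each of 12 cell classes, 1 panel per gene. Robo1 stands at 252 and 274 CPM in Robo3 and Gbx2 neurons, and Robo2 at 129.7 CPM in Fezf1/Nr5a1 neurons and 8.83 CPM in Robo3 neurons.

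The promoters of Robo1 and Robo2, which ran opposite to each other in Robo3 and Fezf1/Nr5a1 neurons, and of Epha7 and Epha8, which had the largest positive ratios in Robo3 neurons, are shown to let their base composition be read beside these levels. Sequences are the 250 bases before a RefSeq transcription start (GRCm38.p6), 5′ to 3′ on the gene's strand, with capitals marking GC boxes (GGGCGG or its reverse complement). Robo1 is shown at chr16:72662899-72663148 (plus strand, inside the annotated gene but in no exon), Robo2 at chr16:74411826-74412075 (minus strand, the start nearest the annotated gene start, 1 of 3), Epha7 at chr4:28812881-28813130 (plus strand, 1 of 2 starts) and Epha8 at chr4:136956817-136957066 (minus strand). The last 3 windows lie in no annotated gene.
Robo1: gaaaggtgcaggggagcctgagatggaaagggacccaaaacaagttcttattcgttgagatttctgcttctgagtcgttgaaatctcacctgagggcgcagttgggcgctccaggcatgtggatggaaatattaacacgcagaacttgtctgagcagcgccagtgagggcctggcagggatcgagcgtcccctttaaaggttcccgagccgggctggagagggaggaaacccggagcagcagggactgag
Robo2: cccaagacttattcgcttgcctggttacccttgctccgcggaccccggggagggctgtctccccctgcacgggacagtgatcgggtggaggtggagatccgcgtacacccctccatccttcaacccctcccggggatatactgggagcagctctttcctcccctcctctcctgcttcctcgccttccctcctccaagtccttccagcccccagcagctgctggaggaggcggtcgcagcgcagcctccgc
Epha7: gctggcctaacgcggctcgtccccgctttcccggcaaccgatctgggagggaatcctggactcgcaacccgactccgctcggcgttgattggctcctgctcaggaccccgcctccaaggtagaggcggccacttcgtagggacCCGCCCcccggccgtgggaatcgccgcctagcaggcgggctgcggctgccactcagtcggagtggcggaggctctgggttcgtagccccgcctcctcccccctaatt
Epha8: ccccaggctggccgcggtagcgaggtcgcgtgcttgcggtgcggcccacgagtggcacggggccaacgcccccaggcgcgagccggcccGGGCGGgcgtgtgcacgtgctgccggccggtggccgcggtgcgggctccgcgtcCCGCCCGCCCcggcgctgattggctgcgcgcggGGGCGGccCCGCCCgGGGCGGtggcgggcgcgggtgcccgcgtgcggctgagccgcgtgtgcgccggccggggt
The Robo1 window had no GC box and 56% G or C, and the Robo2 window none and 65.6%. Epha7 had 1 GC box and 69.2% G or C, and Epha8 had 6 and 84%. The 2 Eph receptors, both high in Robo3 neurons, thus differ in these letters from each other and from Robo1, which is high in the same cells. The RefSeq table matched 57 of the guidance genes through 73 promoters. A GC box (both strands searched) was found in 69.9% of them and in 32.7% of 32851 promoters in the table, and the median G or C content was 64.4% against 52.4%. The E-box letters CANNTG were in 47.9% against 66.2%. The homeodomain core TAATTA was in 2 member promoters (2.74% against 4.84% of all) and the Nr5a1 motif CAAGGTCA in 1 (1.37% against 1.33%). These are matches of letters within the windows, not measured binding.

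Among the netrin pathway genes, Ntn1, a secreted attractant, was low throughout, at 15.46 CPM in Robo3 neurons and 12.4 CPM in progenitors as its highest levels. Dcc, its attractive receptor, had its highest neuronal level in the same class, 16.9 CPM in Robo3 neurons, and was at 1.37 CPM in Fezf1/Nr5a1 neurons. Fezf1/Nr5a1 neurons were low in both: Dcc had 3 UMIs there (log2 ratio -3.03, -5.32 to -1.45) and Ntn1 had 1 (-3.99, -9.31 to -1.48). With gates of 2 UMIs these ratios were -1.67 and -2.57. The repulsive receptor Unc5c ran differently, at 43.1 CPM in Dlx1 neurons and 32.9 CPM in Fezf1/Nr5a1 neurons against 5.15 CPM in Robo3 neurons. Unc5c and Plxnc1, the plexin that binds Sema7a, were the higher genes past 2-fold in Dlx1 neurons, with log2 ratios of 1.0 (0.45 to 1.51) and 1.02 (0.60 to 1.42), and under other settings Unc5c was as low as 0.87 and Plxnc1 as low as 0.92. Unc5b was at 89.2 CPM (57.7 to 132) in vascular-like cells.

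Neuropilin 2, the co-receptor bound by Sema3f, was the most abundant receptor of Robo3 neurons. Nrp2 (chr1:62703285-62818695, plus strand) was at 323 CPM (294 to 355) there, at 142 and 140 CPM in ungated and Gbx2 neurons, at 72.9 and 72.7 CPM in Otp and Dlx1 neurons, at 48.0 CPM in Pomc neurons and at 21.9 CPM (16.2 to 29.1) in Fezf1/Nr5a1 neurons. The log2 ratio against other neurons was 1.70 in Robo3 neurons and -2.68 (-3.13 to -2.27) in Fezf1/Nr5a1 neurons. Neuropilin 1, the co-receptor of Sema3a and of vascular endothelial growth factor, had another distribution: vascular-like cells had 357 CPM (290.4 to 434) and macrophage-like cells 296 CPM (205 to 413). Nrp1 was 6.62-fold higher in vascular-like cells than in neurons (log2 ratio 2.73, 2.41 to 3.03).

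Some plexins had high levels in small classes, described here by level only. In Gbx2 neurons Plxna2, a semaphorin receptor, was at 97.4 CPM (66.6 to 138) against 11.1 CPM in the other neurons, a log2 ratio of 3.13 (2.53 to 3.69) from 32 UMIs. The receptor Plxna4 was at 70.0 CPM there (2.27, 1.58 to 2.89), Sema5a, a transmembrane semaphorin, at 76.1 CPM (2.56, 1.89 to 3.17) and the Eph receptor Epha4 at 94.4 CPM (2.90, 2.29 to 3.45). These 4 genes were below the count minimum used for the comparison counts, because a small class at equal CPM would have held fewer than 10 UMIs, so they are seen only through the class where they were high, and the same holds for Plxnd1. Plxnd1, the Sema3e receptor of endothelium, was at 203 CPM (154 to 264) in vascular-like cells from 57 UMIs, 11 of them in 1 cell, and at 19.3 CPM in fibroblast-like cells and 1.52 CPM or less in each neuron class. Within the vascular-like cells it stood at 394 CPM in the 20 on the endothelial side of their markers and at 14.2 CPM in the 43 on the mural side. Plxnb2, a receptor for class 4 semaphorins, was highest in macrophage-like cells at 252 CPM (169 to 362), which also had the highest level of Sema4d, a transmembrane ligand of B-type plexins, at 104 CPM from 12 UMIs.

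The A-type Eph receptors Epha7 and Epha8 had their highest neuronal levels in Robo3 neurons. Epha7 (chr4:28813131-28967499, plus strand) was at 146 CPM (126 to 167) there, at 50.3 CPM in ungated and 45.7 CPM in Gbx2 neurons, and at 9.59 to 11.6 CPM in the other 4 classes. Robo3 neurons were thus apart from every other neuron class, and the intervals of ungated and Gbx2 neurons overlapped. Epha8 (chr4:136929419-136956816, minus strand) was at 33.9 CPM (24.8 to 45.2) in Robo3 neurons, from 46 UMIs, at 8.52 CPM in ungated neurons, and at 3.55 CPM or less in the other neuron classes. Their log2 ratios against other neurons were 2.19 (1.94 to 2.44) and 2.60 (2.03 to 3.16).

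Ephrin-A5, a ligand of EphA receptors, was lowest among neurons in the class where Epha7 and Epha8 were highest, which was also the class where another EphA receptor, Epha4, was lowest (2.94 CPM). Efna5 was at 337 CPM in Pomc, 323 CPM in Dlx1 and 297 CPM in Otp neurons, 205 CPM in Fezf1/Nr5a1 and 203 CPM in ungated neurons, 186 CPM in Gbx2 neurons and 91.3 CPM in Robo3 neurons, where the log2 ratio was -1.36. Its level in progenitors was the highest of any class, 420.1 CPM (397 to 444), with up to 26 UMIs in 1 cell. The transmembrane ligand Efnb3 was at 277 CPM in Otp neurons and at 143 to 251 CPM in the other neuron classes, and at 53.5 CPM or less in each class outside the neurons. Efnb2, a ligand of Ephb4 and other EphB receptors, was at 47.6 CPM in Otp neurons against 16.2 CPM in other neurons (log2 ratio 1.56, 1.19 to 1.92), and it was higher still in fibroblast-like cells (81.7 CPM), pituitary-like cells (77.4 CPM) and vascular-like cells (67.8 CPM). Ephb4 itself was at 3.04 CPM or less in each neuron class and at 17.4 to 35.7 CPM in the other classes.

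For counts of genes, a gene was said to be apart when its CPM differed at least 2-fold from the reference cells and at least 10 UMIs were expected in the smaller group at equal CPM. The gate genes themselves were left out. In the 6 neuron comparisons the reference was all other neurons. In Otp neurons 1 of 45 members that met the count minimum was higher (Efnb2, 2.22%) against 1.21% of all genes, and 7 were lower (15.6%) against 4.3% of all genes. The lower genes were the receptors Robo2, Epha7, Robo1 and Epha8 and the ligands Sema5a, Ntn1 and Slit2, led by Robo2 and by Epha7 at a log2 ratio of -2.06 (-2.73 to -1.46).

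In Dlx1 neurons 2 of 34 were higher (5.88%, against 0.84% of all genes) and 4 lower (11.8%, against 3.73%), namely Epha7, Robo1, Plxna2 and Sema6b. Epha7 was at -2.03 (-3.16 to -1.09) and Plxna2 at -1.48 (-3.37 to -0.09), the latter at -0.67 under another setting. In Pomc neurons 0 of 31 were higher (1.06% of all genes were) and 5 were lower (16.1%, against 4.42%): Epha7 at -2.04 (-3.26 to -1.05), Robo1 at -1.59 (-2.25 to -1.0), Nrp2 at -1.39 (-1.92 to -0.91), Slit2 and Efnb2. Epha7 and Robo1 were among the lower genes in the Otp, Dlx1 and Pomc comparisons alike, which share most of their reference cells.

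In Fezf1/Nr5a1 neurons Robo2 was the 1 higher gene of 46 (2.17%, against 1.54% of all genes), 3.45-fold above other neurons. The 12 lower genes (26.1%, against 5.37%) were Ntn1, Epha3, Dcc, Nrp2, Epha7, Sema5a, Epha8, Plxna2, Sema3f, Robo1, Efnb2 and Epha5. Epha3, an Eph receptor, had 2 UMIs there (-3.84, -6.90 to -1.96, and -2.43 with gates of 2 UMIs).

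In Robo3 neurons 5 of 41 members were higher (12.2%, against 2.64% of all genes), the most of the 6 comparisons under this count minimum. With 10 UMIs in either group as the minimum, 9 of 58 were higher and 8 lower, beside 6.09% and 9.19% of all genes, a minimum that admits genes through the group where they are high. The 5 were Epha8, 6.07-fold above other neurons, Epha7, Robo1, Nrp2 and Slit2. Against gated neurons alone, without the ungated ones, the log2 ratios were larger, at 3.77 for Epha8, 3.53 for Epha7 and 2.35 for Robo1. The 7 lower members (17.1%, against 5.75%) were Robo2, Epha4 at -2.44 (-4.33 to -1.06), Unc5c at -2.26 (-3.59 to -1.20), Unc5d, Efna5, Plxna4 and Plxna1. In Gbx2 neurons Robo1 was the 1 higher gene of the 19 that met the count minimum (5.26%, against 2.05%). The 6 lower ones (31.6%, against 6.27%) were Ephb1 at -1.51 (-2.96 to -0.38), Nrp1 at -1.36 (-2.68 to -0.31), Sema6a at -1.29 (-2.51 to -0.30), Plxna1, Efnb1 and Plxnb2. The lower count was 0 of 9 with gates of 2 UMIs, 0 of 4 with 30 expected UMIs and 0 of 19 with a 3-fold limit, beside 6.58%, 3.86% and 2.70% of all genes, which left 1 higher gene at each of these settings. With 10 UMIs in either group as the minimum, 14 of 57 members were higher and 9 lower in Gbx2 neurons, beside 22.1% and 8.29% of all genes. In so small a class that minimum admits low genes mostly where they are high, so nothing is read from these counts. With neuron gates of 2 UMIs in place of 1, Nrp1 and Sema6a were at -0.55 and -0.92.

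Over the 6 neuron comparisons, 46 members met the count minimum at least once and 27 were apart at least once, beside 18.16% of all genes that met it at least once. The median log2 ratio of the members was -0.16 in Otp, -0.08 in Dlx1, -0.08 in Pomc, -0.31 in Fezf1/Nr5a1, 0.03 in Robo3 and -0.25 in Gbx2 neurons, where the median of all genes tested lay between -0.05 and 0.00. The median UMI count of the members was below that of all genes tested in each of these comparisons. It was 559 against 577 in the Pomc comparison, 332 against 376 in the Otp comparison and 712 against 952.5 in the Gbx2 comparison.

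**Figure D4:**
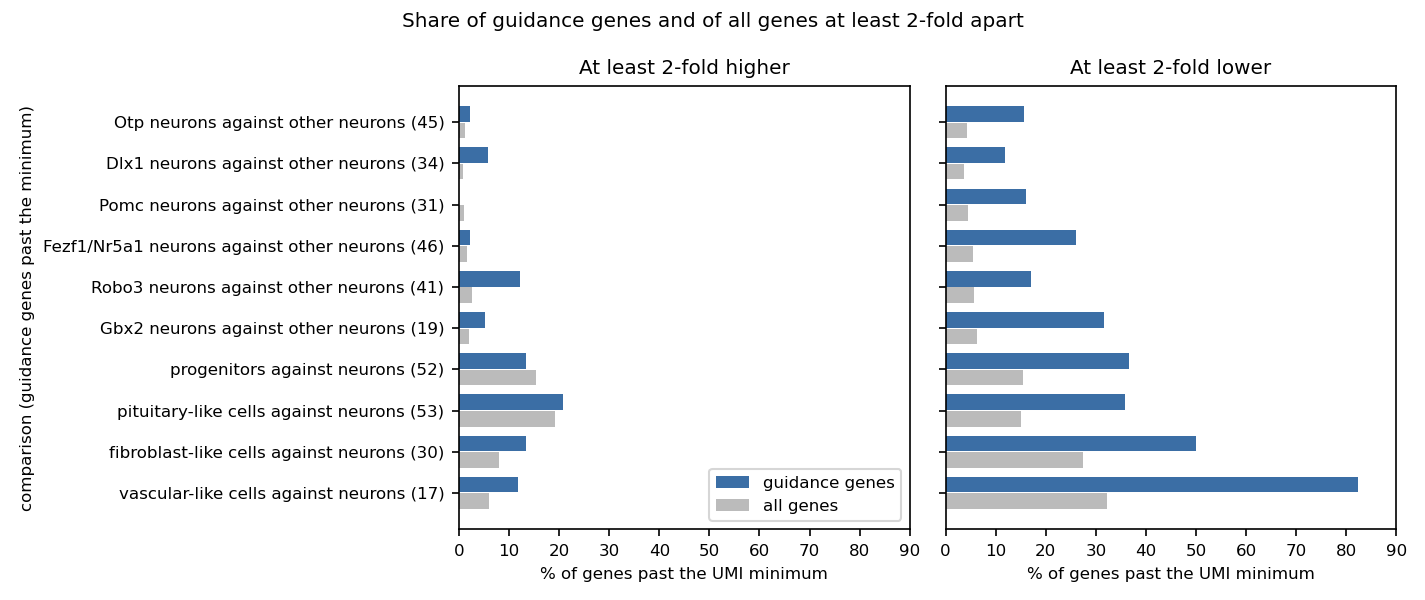
Percent of guidance genes that were at least 2-fold higher or lower in each of 10 comparisons, beside the percent of all genes tested. In Fezf1/Nr5a1 neurons 26.1% of the members were lower against 5.37% of all genes, and in Robo3 neurons 12.2% were higher against 2.64%.

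Progenitors, which give rise to neurons and glia, were compared with all neurons. Of 52 members, 7 were higher (13.5%, against 15.29% of all genes) and 19 lower (36.5%, against 15.47%). The higher genes were led by 2 that neurons nearly lacked. Ephb4, the receptor of Efnb2, was at 17.9 CPM against 0.58 CPM (30.8-fold, log2 ratio 4.94, 3.86 to 6.23), and Sema5b, a transmembrane semaphorin, at 16.9 CPM against 0.95 CPM (4.16, 3.25 to 5.16). Efna4 followed at 2.09 (1.48 to 2.70), then Ephb3, Slit2, Plxnb2 and Ntn1. Lower semaphorins were Sema4f at -3.56 (-5.86 to -1.99), Sema4a at -2.77, Sema6c at -2.75 and Sema6b at -2.61, with Sema4c and Sema3a at smaller ratios, whereas their relatives Sema6a (0.40), Sema6d (0.90), Sema4d (0.07), Sema4g (-0.03) and Sema4b (-0.43) lay within 2-fold. Lower receptors included Robo2 (-3.07, -3.84 to -2.40), Epha8 (-3.02, -5.32 to -1.43), Nrp2 (-2.53) and Plxna4 (-2.52). The share of higher members was near that of all genes.

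In pituitary-like cells, 11 of 53 members were higher (20.8%, against 19.11% of all genes) and 19 lower (35.8%, against 14.96%). Ephb4 was again the highest by ratio, 28.1 CPM against 0.58 CPM (5.59, 4.56 to 6.84). Sema3f, the secreted ligand of Nrp2, was at 33.5 CPM against 4.88 CPM (2.78, 2.33 to 3.23) and Slit3 at a log2 ratio of 2.50 (1.86 to 3.17). Further secreted semaphorins among the higher genes were Sema3c at 1.83 and Sema3a at 1.54. The lower genes were led by Epha8 with 1 UMI (-4.88, -10.20 to -2.38), Sema4a (-3.05, -4.69 to -1.80) and Efnb3 (-2.48, -2.75 to -2.23).

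In fibroblast-like cells 4 of 30 members were higher (13.3%, against 7.96%) and 15 lower (50%, against 27.5%). The higher count was 2 of 26 with doubled marker sums, a mitochondrial limit of 5% or totals without abundant genes (7.31%, 7.57% and 10.2% of all genes), and 2 of 18 after thinning (5.93% of all genes). The ephrin-B ligands split. The higher genes were led by Efnb2 at 81.7 against 20.7 CPM (1.98, 1.54 to 2.40) and Efnb1 at 162 against 50.5 CPM (1.68, 1.37 to 1.97), followed by Sema5a (1.58, 0.96 to 2.15) and Epha4 (1.40), while Efnb3 was lower, at 31.2 against 199.8 CPM (-2.68). The largest negative ratios rested on few counts: Epha5 had 3 UMIs (-3.92, -6.20 to -2.37), Plxna4 had 1 (-3.42, -8.73 to -0.92) and Plxna3 had 3 (-2.94, -5.22 to -1.39). Plxna4 was at -0.68 after thinning.

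In the 63 vascular-like cells 2 of 17 members were higher (11.8%, against 5.94%), Nrp1 and Sema6a, and 14 lower (82.4%, against 32.18%). In so small a class the count minimum was met mainly through UMIs of the neurons, so the lower share and median cover genes so admitted. Sema6d, at 186 CPM there and 23.6 CPM or less in each neuron class, was not counted. With 10 UMIs in either group as the minimum, 18 of 61 members were higher and 26 lower, beside 33.5% and 18.04% of all genes. Sema6a, a transmembrane semaphorin, was at 146 CPM against 58.7 CPM (1.32, 0.83 to 1.77) but at 0.36 after thinning, and within the class it was at 229 CPM on the endothelial side and 64.0 CPM on the mural side. Epha5, Robo2 and Sema6c had 1 UMI each, with log2 ratios of -4.24 (-9.54 to -1.76), -3.87 (-9.18 to -1.39) and -3.63 (-8.93 to -1.14). Ephb1 and Ephb2 were at 0 UMIs there, at least 4.79-fold and 4.20-fold lower than in neurons against a floor of 3 UMIs over the class. The median log2 ratio of all genes tested was itself off 0 in these cells, at 0.14 in pituitary-like, -0.36 in fibroblast-like and -0.43 in vascular-like cells, and that of the members was -0.70, -0.82 and -2.26. Taking all 10 comparisons, 54 members met the count minimum at least once and 52 of them were apart at least once, beside 57.74% of all genes that met it. Of the 15 that did not meet it, 3 had no UMI. The other 12 were Plxnb3, Plxnd1, Robo4, Epha1, Epha2, Epha6, Efna1, Sema3b, Sema3d, Sema3e, Sema3g and Sema7a. Of the 5 genes matched by spelling alone, Unc50 had 1307 UMIs in these classes and Plxna4os3 had 0.

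Other genes of the guidance pathway were followed through a list of 44 further ligands, receptors and adhesion molecules and a list of 52 intracellular effectors and cytoskeletal targets. In Robo3 neurons 5 of 30 further guidance genes were higher (16.7%, beside 2.64% of all genes) and 4 lower (13.3%, beside 5.75%), with a median log2 ratio of 0.35. Cntn2, an axonal adhesion molecule, was at 152 CPM there against 27.6 CPM in other neurons (2.46), and Ntng1, a membrane-bound netrin-G, was at -3.23. The same Ntng1 was at 2.64 in Gbx2 neurons, where 1 of 17 was higher and 2 lower (all genes 2.05% and 6.27%). That 1 higher gene was Ntng1, which was also among the 8 thalamic markers listed for Gbx2 neurons. Cntn2 was at -2.28 in Dlx1, -3.35 in Pomc and -3.21 in Fezf1/Nr5a1 neurons, whose counts were 0 higher and 8 lower of 26 (all genes 0.84% and 3.73%), 1 and 4 of 26 (1.06% and 4.42%), and 0 and 8 of 32 (1.54% and 5.37%). In Otp neurons 2 of 32 were higher, with the adhesion receptor Flrt1 at 2.0, and 3 lower (all genes 1.21% and 4.3%).

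Among the effectors, Vav3, a signalling protein that acts below Eph receptors, had the largest ratio of the list in 4 of the 6 neuron comparisons. It was at 197 CPM in Robo3 neurons against 28.0 CPM in other neurons (2.82), and at -2.75 in Otp, -2.25 in Dlx1, -3.10 in Pomc and -4.53 in Fezf1/Nr5a1 neurons. Its relative Vav2 was also higher in Robo3 neurons (2.32), as was Rnd2 (1.08), making 3 higher and 0 lower of 46 (all genes 2.64% and 5.75%). The counts over all tested effectors were 1 higher and 5 lower of 47 in Otp, 0 and 4 of 44 in Dlx1, 0 and 2 of 43 in Pomc, 2 and 2 of 47 in Fezf1/Nr5a1 and 0 and 3 of 33 in Gbx2 neurons. The shares of all genes in these comparisons are those just given for the further guidance genes. Over the 6 neuron comparisons the list medians ran from -0.38 to 0.35 for further guidance genes and from -0.22 to 0.14 for effectors, beside the medians of all genes given above.

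Against neurons, lower genes outnumbered higher ones in both lists and all 4 classes, as they also did over all genes in progenitors (15.47% lower, 15.29% higher), fibroblast-like cells (27.5% and 7.96%) and vascular-like cells (32.18% and 5.94%), but not in pituitary-like cells (14.96% and 19.11%). Progenitors had 2 higher and 22 lower of 49 effectors (median -0.81), with Ablim3, an actin-binding protein, at -5.40 and the growth cone protein Gap43 at -4.76. Their further guidance genes split 8 higher and 11 lower of 35, with the chemokine receptor Cxcr4 at 4.21 and the adhesion cadherin Celsr1 at 3.96 above and the adhesion molecule L1cam at -4.36 below. Effector counts were 3 higher and 25 lower of 49 in pituitary-like, 1 and 27 of 43 in fibroblast-like and 3 and 22 of 31 in vascular-like cells. Further guidance genes were 10 and 13 of 37, 4 and 13 of 25, and 0 and 13 of 15 in the same classes, where their medians were -0.19, -1.42 and -2.38 and those of the effectors -1.15, -2.11 and -1.99.

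The classes hold mixtures, and several were divided by a further gene after the first comparisons had been seen. Progenitors with a UMI of Nkx2-1, a transcription factor of the ventral hypothalamus, numbered 322, and those without 512. Efna5 was at 702 CPM in the first and 239 CPM in the second (log2 ratio 1.55, 1.38 to 1.73). Ntn1 was at 22.9 against 5.67 CPM (2.01, 0.91 to 3.23), Plxna2 at 29.0 against 7.94 CPM (1.87) and Plxnc1 at 45.8 against 17.6 CPM (1.38). Dcc ran opposite to its ligand Ntn1, with 1 UMI in Nkx2-1-positive progenitors (0.88 CPM) and 41 in the others (23.3 CPM, -4.72, -10.06 to -2.16). The EphA receptors did not move as one: Epha7 was at 24.6 against 105 CPM (-2.09, -2.72 to -1.51) and Epha3 at -2.78, while Epha5 was at 29.0 against 13.0 CPM (1.15, 0.34 to 1.99), the direction of Efna5, and Epha4 at -0.07 (-0.78 to 0.61). Efna4 was at -2.37, Sema4c at -2.30 and Nrp2 at -1.25. Divided instead by Mki67 or Top2a, genes of cycling cells, 177 progenitors with either had Epha7 at 116 CPM against 55.7 CPM in the 657 without. By the same division Epha3 was at 1.85, Sema3c at -1.94 and Epha4 at -1.52.

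**Figure D5:**
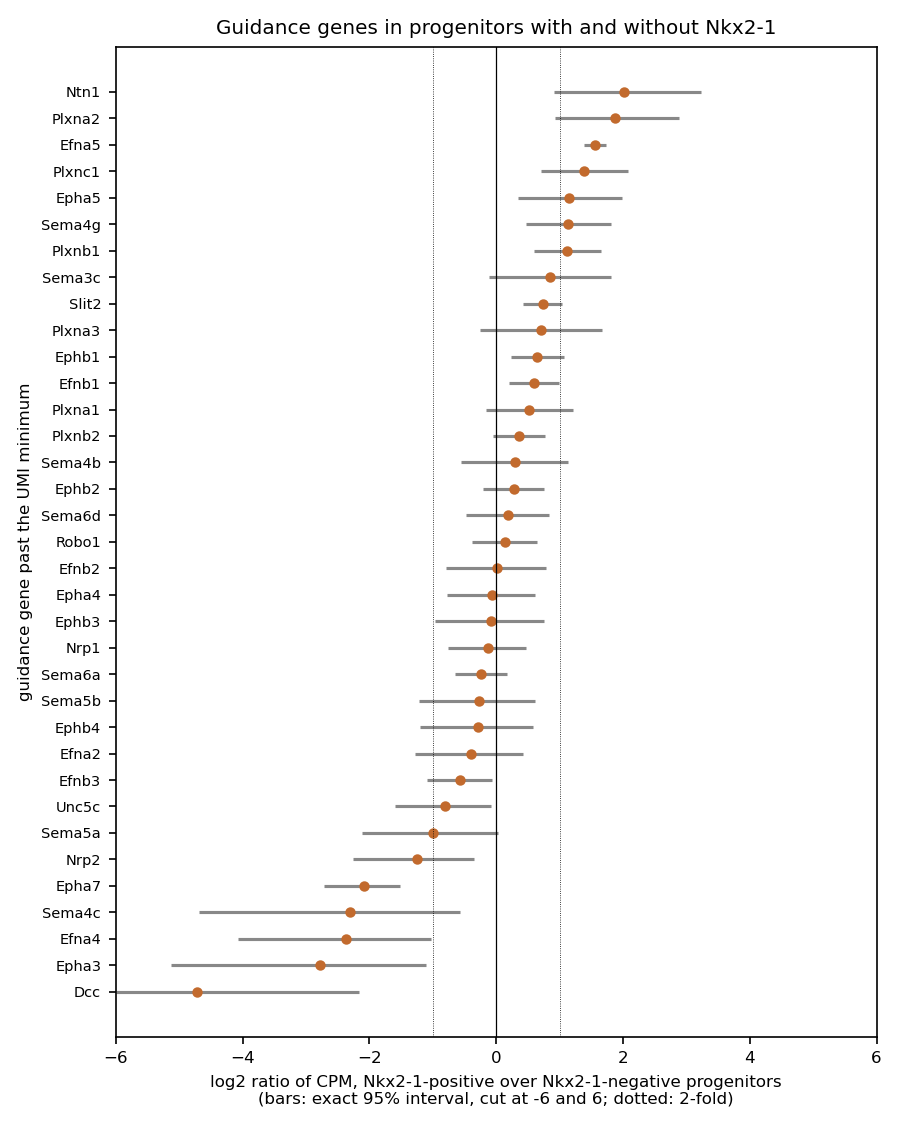
Log2 ratio of level in progenitors with Nkx2-1 over progenitors without it, 1 point per guidance gene with its 95% exact counting interval, cut at 6 either side of 0. Ntn1 (2.01), Plxna2 (1.87) and Efna5 (1.55) lie to the right and Dcc (-4.72), Epha3 (-2.78) and Epha7 (-2.09) to the left.

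Within Otp neurons, 129 held a UMI of Npy or Agrp, peptides of neurons that raise food intake, 142 held Sst and neither of these, and 353 held none of them. Nrp1 was at 38.2 CPM in the Npy or Agrp cells, 139 CPM in the Sst cells (log2 ratio of the first over the second -1.86, -2.74 to -1.06) and 79.2 CPM in the rest. Ephb1 was lower by the same comparison (-2.03) and Sema6a higher (1.37). Robo1 was at 13.5 CPM in the Npy or Agrp cells against 40.5 CPM in those with no such peptide (-1.59).

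Among pituitary-like cells, 65 with more than 2 UMIs of Cga, the glycoprotein hormone subunit, had Epha5 at 139 CPM against 28.9 CPM in the 575 others without high Pomc (2.27, 1.69 to 2.82) and Nrp1 at 187 against 58.5 CPM (1.67). Robo2 was at 37.3 against 111 CPM (-1.57), Nrp2 at -2.10 and Epha4 at -2.48. In the 60 cells with more than 9 Pomc UMIs, Efnb2 was at -1.40, Robo2 at -1.12, Nrp2 at -1.21 and Epha4 at -2.07 against the same others. The 575 other cells served as the reference for both hormone groups, so these ratios are not independent of each other.

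Ungated neurons, the largest class, divided into 497 with Nkx2-1, 68 with Neurod2 or Neurod6, and others. Neurod6 was also among the markers listed for Robo3 neurons, at 53.0 CPM there against 4.36 CPM in other neurons. Robo2 was at 92.4 CPM in the first and 11.5 CPM in the second (3.01, 1.43 to 5.30), and Robo1 was at 51.8 against 203 CPM (-1.97, -2.47 to -1.46). Whether the Neurod2 or Neurod6 cells are of the same kind as Robo3 neurons was not tested, so their high Robo1 and low Robo2 are not a separate instance of that pattern. Plxna1 (2.22), Efna5 (1.58) and Sema6a (1.55) were higher in the Nkx2-1 neurons, Unc5d was at 51.8 CPM there with 0 UMIs in the Neurod2 or Neurod6 group.

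Co-detection in single cells was counted after thinning, over 3430 neurons, as a description of cells that share a library. Of 577 neurons with a Robo1 UMI, 6.07% (4.26 to 8.34) also held Robo2, against 9.74% (8.68 to 10.9) of the 2853 without, so 35 cells held both. Within classes the shares were 19.5% against 26.6% in Fezf1/Nr5a1 and 5.10% against 8.57% in ungated neurons, but 8.11% (1.70 to 21.9) against 1.93% (0.93 to 3.52) in Otp and 1.35% against 0.54% in Robo3 neurons, each with overlapping intervals. A Slit2 UMI went with Robo1 in 26.2% of 321 cells against 15.9% of 3109 without Slit2. The shares were 6.67% and 6.67% in Otp, 8.70% and 8.75% in Fezf1/Nr5a1 and 22.2% and 17.98% in ungated neurons. Within Robo3 neurons they were 54.1% of 74 and 41.5% of 260, with overlapping intervals (42.1 to 65.7 and 35.5 to 47.8).

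Epha7 and Robo1 were found together more often over all neurons, in 33.9% of 271 Epha7-positive cells against 15.4% of the others. In ungated neurons the shares were 30.3% (23.0 to 38.5) of 145 against 17.2% (15.3 to 19.2) of 1456, without overlap. Within Robo3 neurons they were 45.8% of 96 against 43.7% of 238, with overlapping intervals (35.6 to 56.3 and 37.3 to 50.3). Otp and Fezf1/Nr5a1 neurons held only 12 and 10 Epha7-positive cells, with overlapping intervals for each pair given here. For Epha7 and Nrp2 the intervals within Robo3 neurons did not overlap: 61.5% (51.0 to 71.2) of Epha7-positive cells held Nrp2 against 44.1% (37.7 to 50.7) of Epha7-negative ones. In ungated neurons the shares were 29.7% (22.4 to 37.8) against 21.6% (19.5 to 23.8), with overlap. Efna5, the ligand, was in 19.2% of Epha7-positive neurons against 34.9% of the others, and within Robo3 neurons in 8.33% (3.67 to 15.8) against 21.0% (16.0 to 26.7). In ungated neurons it was in 20.7% (14.4 to 28.2) against 32.6% (30.2 to 35.0).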

How the data were processed

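The authors deposited 1 gene by cell matrix of raw UMI counts, in which 4 sequencing runs of a single droplet library (10x Genomics) are pooled; the submitters' processing notes name Cell Ranger 2.1.1, STAR 2.4.0, Seurat 2.0 and the mouse build mm10. Of 6465 barcodes holding 26277265 UMIs, 6351 with 200 to 4500 genes, at most 10% mitochondrial UMIs and at most 10 Hba-a1 UMIs were kept (24430646 UMIs, median 3338, range 1748 to 16836 per cell). The study states another number of cells for its own clustering, and that set was not rebuilt here. Doublets were not called. Instead 104 cells with Stmn2 and non-neural markers, 197 in several gates, 2 tied and 566 in no class were left out.

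Neuron classes needed 1 UMI of their gate gene (3 for Pomc) and were rebuilt here, not taken from an annotation. UMIs were summed per class and scaled to CPM, with exact Poisson intervals for levels and exact binomial (Clopper-Pearson) intervals for ratios and shares, all at 95%, in Python 3.11.15 with numpy 2.4.6, scipy 1.17.1 and pandas 2.3.3. Free RNA was not removed. The scripts were tested on simulated data. With 1 library no test across samples was possible. The members, classes, gene lists and comparisons were chosen with earlier results of these data known. Up to 3 genes per comparison and direction, ranked by ratio, were given with intervals; genes named for their level in 1 class or in a subdivision of a class were chosen after their values were seen. Gene positions came from GENCODE (67 of 69 guidance genes matched by symbol) and promoters from RefSeq.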

Additional observations from a re-analysis of the deposited data

How the results depend on the processing

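The number of members apart was recounted under other settings, 126 times in all, and stayed within 1.5 times the reported number in 100. A 3-fold in place of a 2-fold limit left 3 in Otp, 2 in Dlx1, 2 in Pomc, 6 in Fezf1/Nr5a1 and 1 in Gbx2 neurons, 17 in progenitors, 17 in pituitary-like and 11 in fibroblast-like cells. A minimum of 30 expected UMIs tested fewer genes. It left 1 and 4 of 28 in Otp (0.80% and 2.78%) and 1 and 2 of 17 in Dlx1 neurons (0.35% and 2.87%). Fezf1/Nr5a1 neurons had 1 and 6 of 31 (1.03% and 3.34%) and Gbx2 neurons 1 and 0 of 4 (1.23% and 3.86%). In progenitors the counts were 2 and 12 of 37 (10.2% and 15.3%). In fibroblast-like cells they were 1 and 6 of 12 (5.07% and 29.5%) and in vascular-like cells 0 and 2 of 3 (4.14% and 31.1%). A mitochondrial limit of 5% gave 0 and 3 of 31 in Dlx1 neurons (0.84% and 3.96%). Gates of 2 UMIs gave 1 and 0 of 9 in Gbx2 neurons (2.16% and 6.58%). Counting cells of several gates in each gave 0 and 8 of 41 in Pomc neurons (1.05% and 3.79%). Thinning gave 1 and 3 of 8 in Gbx2 neurons (1.86% and 6.00%) and 0 and 4 of 4 in vascular-like cells (4.09% and 33.5%). Asking for 10 UMIs in either group, chosen after seeing the data, as were the gated-neuron reference and the subdivided classes, tested more genes and gave 13 in Otp (2 higher and 11 lower, beside 2.92% and 7.21% of all genes), 14 in Dlx1 (5 and 9, beside 8.90% and 6.55%), 13 in Pomc (3 and 10, beside 11.1% and 7.11%) and 23 in Gbx2 neurons (14 and 9, beside 22.1% and 8.29%), 36 in fibroblast-like (13 and 23, beside 24.3% and 20.3%) and 44 in vascular-like cells (18 and 26, beside 33.5% and 18.04%). It admits genes through the group where they are high, most of all in small classes. By direction, the 2 higher genes in Dlx1 neurons became 0 of 34 at 3-fold (0.28% of all genes). They were 0 of 31 with the 5% mitochondrial limit (0.84%). They were also 0 of 39 when cells of several gates were counted in each (0.78% of all genes). The count was 1 with 30 expected UMIs, gates of 2 UMIs, doubled marker sums, 4 Stmn2 UMIs or a mean over cells (0.35% to 0.85% of all genes). Pituitary-like cells had 6 of 41 higher with 30 expected UMIs (13.7% of all genes) and 7 of 44 after thinning (14.8%). Progenitors had 4 of 43 higher after thinning (11.8%) and 2 of 37 with 30 expected UMIs (10.2%). Vascular-like cells had 1 of 17 higher at 3-fold (2.25%) or as a mean over cells (5.81%), and 0 after thinning or with 30 expected UMIs. Lower genes in Robo3 neurons became 4 of 41 at 3-fold (2.76%). Of 467 recomputed log2 ratios of named genes none changed sign, 15 fell under 2-fold and 14 lay outside their intervals. Robo2 in Fezf1/Nr5a1 neurons ran from 1.33 (gates of 2 UMIs) to 2.21 (gated neurons as reference) and was -3.72 in Robo3 neurons after thinning. Thinning also gave Epha7 in Pomc neurons at -3.84, Ephb1 in Gbx2 neurons at -3.21 (-3.30 with gates of 2 UMIs) and Epha8 in pituitary-like cells at -2.03. Ratios resting on few UMIs also moved by over 1.5 times, among them Epha5 (-2.73 in fibroblast-like and -2.82 in vascular-like cells), Robo2 (-2.43) and Sema6c (-2.29) in vascular-like cells, all after thinning, Epha8 in progenitors (-4.29 with doubled marker sums) and Epha4 in Robo3 neurons (-3.27 with gates of 2 UMIs). The cause was not tested. No paired analysis was possible because the replicate numbers in the labels belong to runs of 1 library that the matrix pools, and for the same reason no run could be left out. Depth limits the small classes: 3 UMIs correspond to 9.13 CPM in Gbx2 neurons and 26.1 CPM in macrophage-like cells.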
